A study of Homo sapiens with 12 samples.

Results

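The 10 genes described here are NFKBIA, TNFAIP3, NFKB1, NFKB2, RELB, IL1A, IL1B, IL6, CSF1 and LIF, a set of NF-κB regulators and cytokines. They were chosen by name, as the rows of the processed table that carry these symbols, and make up 10 of the 58735 genes listed. The data are bulk RNA-seq of KYSE180 and KYSE150, established cell lines from human squamous cell carcinoma of the oesophagus, in 12 libraries that form 4 groups of 3. KYSE180 cells labelled with the genotype CDCA7 overexpression were set against native KYSE180 cells labelled WT, and KYSE150 cells labelled shCDCA7, which carry a short hairpin RNA against CDCA7, against native KYSE150 cells labelled WT. CDCA7 recruits HELLS, a remodeller of nucleosomes, to chromatin. All groups were grown in the same serum-containing medium, with no cytokine or other stimulus named. The controls are native cells, so the carrying of a construct and the change in CDCA7 cannot be told apart, and the vectors, the hairpin's sequence and the number of clones are not given in the sources used here. Each manipulation was made in 1 line, so manipulation and line cannot be told apart either.

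NF-κB is a family of dimeric transcription factors held in the cytoplasm by inhibitor proteins until an upstream kinase complex, IKK, marks the inhibitor for destruction. NFKB1 and NFKB2 encode precursors of DNA-binding subunits, and RELB encodes a subunit of the non-canonical branch that pairs with the NFKB2 product. NFKBIA, which encodes IκBα, and TNFAIP3, which encodes the ubiquitin-editing enzyme A20, are inhibitors whose genes are themselves classical NF-κB targets, so they form negative feedback loops. IL1A and IL1B encode interleukin-1 cytokines that activate the pathway in neighbouring cells, and squamous epithelia are known for holding interleukin-1α. IL6 and LIF signal through receptors that contain the shared chain gp130, and CSF1 is the growth factor of macrophages.

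The promoters of 5 of the genes are shown: those of the inhibitors NFKBIA and TNFAIP3, which carry matches to the κB consensus, of IL1A and IL1B, which do not, and of IL6. Whether these motifs have a part in the changes given below was not tested. Each is 300 bases, from 250 before to 50 after the RefSeq transcript start, on GRCh38.p14 and written 5′ to 3′ on the gene's strand. Capitals mark a κB consensus match in NFKBIA, TNFAIP3 and IL6, and a match to the AP-1 motif TGANTCA in IL1A, and both strands were searched. The windows lie at chr14:35404700-35404999 on the minus strand for NFKBIA, chr6:137867009-137867308 on the plus strand for TNFAIP3, chr2:112784444-112784743 on the minus strand for IL1A, chr2:112836730-112837029 on the minus strand for IL1B, and chr7:22726950-22727249 on the plus strand for IL6.
NFKBIA: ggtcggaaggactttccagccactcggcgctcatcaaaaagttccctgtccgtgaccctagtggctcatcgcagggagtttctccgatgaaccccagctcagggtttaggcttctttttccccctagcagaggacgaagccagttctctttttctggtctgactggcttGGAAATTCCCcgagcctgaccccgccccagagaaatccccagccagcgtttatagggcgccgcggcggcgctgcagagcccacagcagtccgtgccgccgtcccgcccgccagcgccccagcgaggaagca
TNFAIP3: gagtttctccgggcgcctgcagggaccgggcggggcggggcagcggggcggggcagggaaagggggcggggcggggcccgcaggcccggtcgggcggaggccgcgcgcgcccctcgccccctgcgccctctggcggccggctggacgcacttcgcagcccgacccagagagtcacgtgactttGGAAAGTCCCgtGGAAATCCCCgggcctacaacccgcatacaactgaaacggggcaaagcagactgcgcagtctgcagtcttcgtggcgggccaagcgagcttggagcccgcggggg
IL1A: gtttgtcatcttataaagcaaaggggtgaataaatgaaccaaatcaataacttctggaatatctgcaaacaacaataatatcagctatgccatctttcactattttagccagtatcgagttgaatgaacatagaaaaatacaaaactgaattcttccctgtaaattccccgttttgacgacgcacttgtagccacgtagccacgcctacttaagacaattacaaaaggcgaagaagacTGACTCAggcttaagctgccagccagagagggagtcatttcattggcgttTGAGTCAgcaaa
IL1B: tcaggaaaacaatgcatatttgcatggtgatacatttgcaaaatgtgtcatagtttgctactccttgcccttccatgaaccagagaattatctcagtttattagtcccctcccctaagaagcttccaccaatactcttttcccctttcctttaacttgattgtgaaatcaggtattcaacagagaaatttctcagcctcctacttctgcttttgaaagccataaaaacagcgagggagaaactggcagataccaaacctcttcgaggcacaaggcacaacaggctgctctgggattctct
IL6: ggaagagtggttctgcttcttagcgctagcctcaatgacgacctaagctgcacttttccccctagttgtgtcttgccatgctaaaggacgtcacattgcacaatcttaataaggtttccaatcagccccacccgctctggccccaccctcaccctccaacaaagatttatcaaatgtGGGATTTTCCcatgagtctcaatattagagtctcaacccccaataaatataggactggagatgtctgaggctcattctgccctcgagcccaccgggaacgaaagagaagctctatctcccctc

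RefSeq windows were matched for 7 of the 10 genes, with 11 transcript starts between them. RELB, CSF1 and LIF had none. A κB consensus match was found in 5 of the 7 genes, namely NFKBIA, TNFAIP3, NFKB1, NFKB2 and IL6. Over all 35116 windows of the same length, 5.91% held 1. That share, like the one for AP-1 below, counts windows, whereas 5 of 7 counts genes. A gene with several starts had more chances of a match. In NFKBIA the match began 81 bases before the start (position -81), and TNFAIP3 had a pair, at -67 and -55. NFKB1 had a match at -49 and IL6 at -73. NFKB2 had matches at 2 of its 3 starts, including an overlapping pair at -107 and -106. The AP-1 motif occurred in 1 gene, IL1A, at -12 and at 39 of its first start, against 7.71% of all windows, and its second start, whose window overlaps the first, held the same letters. A match describes the letters only and does not show that a factor binds there.

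**Figure D1:**
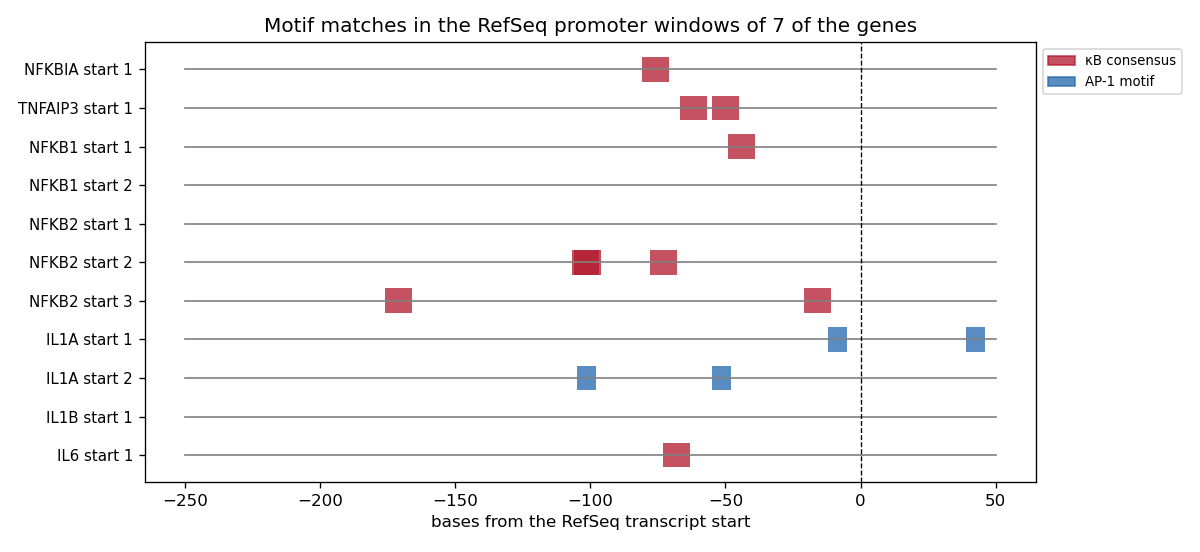
Positions of κB consensus matches (red) and AP-1 motif matches (blue) in the RefSeq promoter windows of 7 of the genes, with distance from the transcript start in bases on the horizontal axis and 1 line for each of the 11 starts. Matches to the κB consensus lie before the start in NFKBIA, TNFAIP3, NFKB1, NFKB2 and IL6, and IL1B has no match to either motif.

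Libraries held 16.3 to 19.6 M reads. CDCA7 itself was at 44.6, 59.1 and 57.9 FPKM (a read level scaled for gene length and library size) in overexpressing libraries, against 24, 18.2 and 17.4 FPKM in KYSE180 controls, and at 9.24, 10.1 and 8.83 FPKM in shCDCA7 libraries, against 27.4, 25.6 and 25.6 FPKM in KYSE150 controls. Of the shCDCA7 libraries, replicate 2 stood apart. Its log2 values correlated with those of replicates 1 and 3 at r = 0.951 and 0.954, while those 2 correlated at 0.996, and its mitochondrial share of reads was 11.23%, against 5.203% and 5.727% in them and 4.027 to 4.151% in the KYSE150 controls. In KYSE180 that share was 7.974 to 8.651% in overexpressing libraries and 4.762 to 6.381% in controls. The part that this share plays in the results was not tested. Among the KYSE180 controls, replicate 2 correlated with replicates 1 and 3 at r = 0.977 and 0.966, while those 2 correlated at 0.982. All 10 squamous epithelial markers averaged 1 FPKM or more in every group, and none of 12 leukocyte markers did in any group. The leukocyte markers summed to 0.8244 to 1.306 FPKM in overexpressing libraries, 1.506 to 2.639 in KYSE180 controls, 0.4459 to 1.04 in shCDCA7 libraries and 0.6866 to 0.8979 in KYSE150 controls, with MS4A1, LYZ and TYROBP at 0 throughout. Fibroblast markers summed to at most 8.188 FPKM and endothelial markers to at most 2.138 FPKM in any library. Nothing in the labels ties the replicates to separate cultures, and the p-values thus measure only how these libraries vary, which may be technical.

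The lines differed in which of the 10 genes led. Both KYSE180 groups were led by NFKBIA, at 218.1 ± 52.1 FPKM with overexpression and 152.1 ± 29.54 in controls (SD, n = 3 each), far above NFKB2, the second gene in both. Both ended with IL6 and IL1B, neither of which passed 0.572 FPKM in a KYSE180 library. In KYSE150, shCDCA7 cells were led by IL1A at 46.31 ± 5.204 FPKM and controls by NFKB2 at 23.16 ± 1.071 FPKM, with IL1A second at 19.14 ± 1.473. CSF1 came last in both KYSE150 groups, at 2.076 ± 0.2886 FPKM with shCDCA7 and 2.401 ± 0.3665 in controls. Of the 9 pairs of neighbours in each order, the ranges of the 3 libraries were apart for 7 pairs with overexpression and 3 in KYSE180 controls, and for 4 pairs with shCDCA7 and 6 in KYSE150 controls. The order of RELB, TNFAIP3 and NFKB1 in KYSE180 controls, and that of RELB, TNFAIP3, IL6 and LIF in KYSE150 controls, thus lay within the spread.

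**Figure D2:**
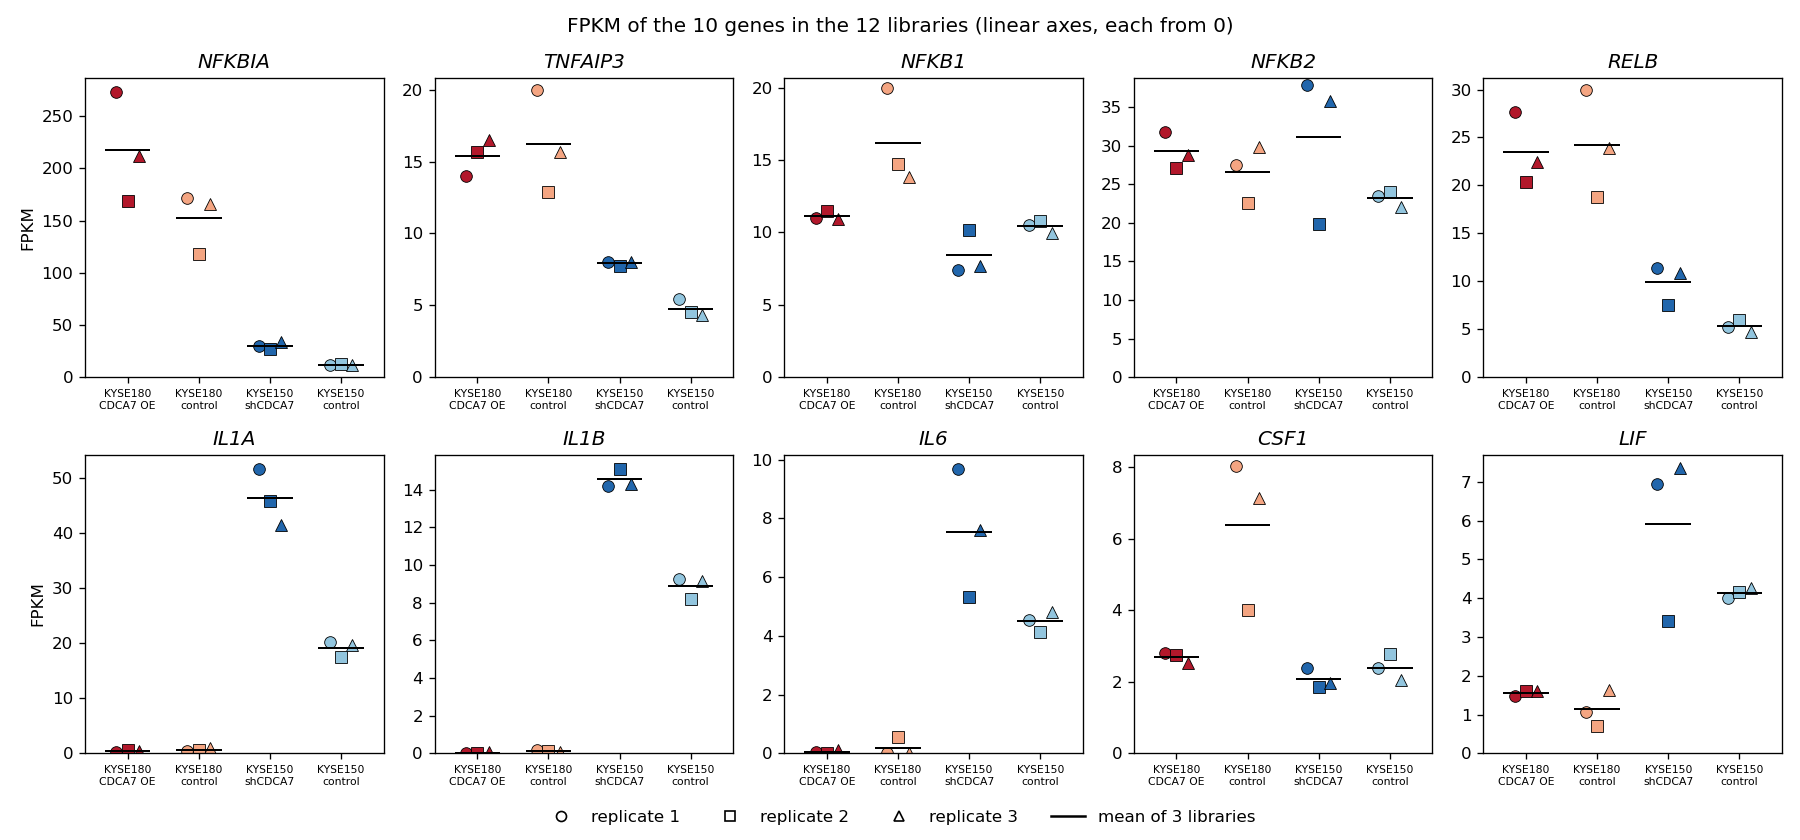
FPKM of the 10 genes in each of the 12 libraries on linear axes that start at 0, with the mean of each group as a bar. IL1A at 41.4 to 51.7 FPKM, IL1B at 14.2 to 15.1 and NFKBIA at 26.6 to 34.2 in shCDCA7 libraries all lie above every KYSE150 control library.

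In KYSE150, 5 of the 10 genes rose with shCDCA7, none fell and 5 did not pass the test. The test was limma-trend on log2(FPKM + 1), two-sided, with Benjamini-Hochberg adjustment over all genes tested and a call at an adjusted p under 0.05. Of the 14342 genes tested, 19.9% were called, 10.0% as higher and 9.86% as lower, so 5 of 10 is above the background share. The 10 genes were chosen with earlier results of these data known, however, so the choice itself may have raised this count. The median change of the 10 genes was 0.62 on the log2 scale, and that of all genes tested was 0.002. Without shCDCA7 replicate 2, the library that stood apart, 8 of the 10 were called higher and 1 lower, but the number of genes called over the whole table also rose to 7948, which is 55.9% of those tested in that fit, against 2854 with it. Beside these changes, 5 of 10 squamous epithelial markers were also called higher with shCDCA7 (KRT17, JUP, KRT5, TP63 and EPCAM), and the 10 summed to 1198 to 1281 FPKM with shCDCA7 and 858.6 to 905 in controls. Their part in the result was not tested. In bulk RNA, a change in how many cells use a gene and a change in the RNA per cell cannot be told apart.

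Of the inhibitors, NFKBIA stood at 30.2, 26.6 and 34.2 FPKM in shCDCA7 libraries and at 11.4, 12.3 and 11.4 FPKM in controls. Every shCDCA7 library was above every control, by more than the spread within either group. The ratio of the means was 2.597, and the log2 difference was 1.30 (SE 0.11, adjusted p = 0.00249), so NFKBIA rose. TNFAIP3 was at 8.05, 7.77 and 8.03 FPKM with shCDCA7, against 5.42, 4.56 and 4.31 FPKM in controls. The shCDCA7 values were nearly the same in all 3 libraries and all lay above the controls. TNFAIP3 rose by 0.64 (SE 0.11, adjusted p = 0.0128), a ratio of 1.669. NFKBIA was called under each of 16 alternatives, and TNFAIP3 lost its call in 5 of 16, among them those without control replicate 2 (adjusted p = 0.0814) or 3 (0.0725), with a range of 0.000893 to 0.0814.

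Among the subunits, RELB was at 11.4, 7.51 and 10.9 FPKM with shCDCA7 and at 5.27, 5.95 and 4.71 FPKM in controls. The groups did not overlap, although shCDCA7 replicate 2 was the lowest of its group and nearest to the controls. RELB rose by 0.78 (SE 0.17, adjusted p = 0.0263), a ratio of 1.868. The call was lost in 9 of 16 alternatives, among them leaving out any library other than shCDCA7 replicate 2, and the adjusted p ran from 0.000175 without shCDCA7 replicate 2 to 0.118 with library totals for scaling. NFKB2 was at 37.8, 19.9 and 35.8 FPKM with shCDCA7, against 23.5, 24 and 22 FPKM in controls. Replicates 1 and 3 were far above the controls and replicate 2 was below all of them. NFKB2 did not pass the test (0.36, SE 0.24, adjusted p = 0.317), and without replicate 2 it was called higher (0.65, adjusted p = 9.57e-05). NFKB1 was at 7.37, 10.2 and 7.69 FPKM with shCDCA7 and at 10.5, 10.8 and 9.99 FPKM in controls. Here replicate 2 was the high one and lay within the controls' range. The difference of NFKB1 was -0.29 (SE 0.13, adjusted p = 0.167), and without replicate 2 it was called lower (-0.42, adjusted p = 0.000756). It was also called lower with library totals for scaling (-0.53, adjusted p = 0.00884), a scaling that puts the median of all genes at -0.161. The adjusted p of NFKB1 ran from 0.000756 to 0.386 over 16 alternatives, and that of NFKB2 from 9.57e-05 to 0.815.

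Both interleukin-1 genes rose. IL1A was at 51.7, 45.8 and 41.4 FPKM with shCDCA7 and at 20.2, 17.5 and 19.7 FPKM in controls. The lowest shCDCA7 library was far above the highest control. IL1A rose by 1.23 (SE 0.11, adjusted p = 0.0028), a ratio of 2.42, and was called under each of 16 alternatives. IL1B, whose product needs cleavage by caspase-1 to become active, was at 14.2, 15.1 and 14.3 FPKM with shCDCA7, against 9.27, 8.22 and 9.14 FPKM in controls. The groups lay well apart. IL1B rose by 0.66 (SE 0.09, adjusted p = 0.00717), a ratio of 1.639, and lost its call in 1 of 16 alternatives, without control replicate 2 (adjusted p = 0.0556). These 2 genes are neighbours on chromosome 2, with 45.2 kb between them, so they share a locus as well as a family.

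IL6 was at 9.69, 5.33 and 7.62 FPKM with shCDCA7 and at 4.54, 4.13 and 4.81 FPKM in controls. All shCDCA7 libraries were above the controls, but they were widely spread, with replicate 2 the lowest. The difference of 0.61 (SE 0.20) had a 95% interval from 0.13 to 1.08 and did not pass the adjusted test (adjusted p = 0.0762). In the count of groups that do not overlap, IL6 joins the 5 called genes, which makes 6 of 10, all of them higher, where 47.8% of all genes tested were without overlap, 25.3% higher and 22.5% lower. LIF was at 6.95, 3.42 and 7.37 FPKM with shCDCA7, against 4, 4.17 and 4.26 FPKM in controls. As for NFKB2, replicates 1 and 3 were above the controls and replicate 2 below them. The difference of LIF was 0.37 (SE 0.25, adjusted p = 0.327). Without replicate 2 both were called higher, IL6 with 0.81 (adjusted p = 0.000695) and LIF with 0.66 (adjusted p = 0.000189). Over the alternatives the adjusted p ran from 0.000695 to 0.29 for IL6 and from 0.000189 to 0.719 for LIF. CSF1 was at 2.4, 1.86 and 1.96 FPKM with shCDCA7 and at 2.39, 2.77 and 2.04 FPKM in controls. The groups overlapped, and the difference of -0.14 had a 95% interval from -0.45 to 0.16 (adjusted p = 0.458). It passed the test in none of 16 alternatives (lowest adjusted p 0.141).

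**Figure D3:**
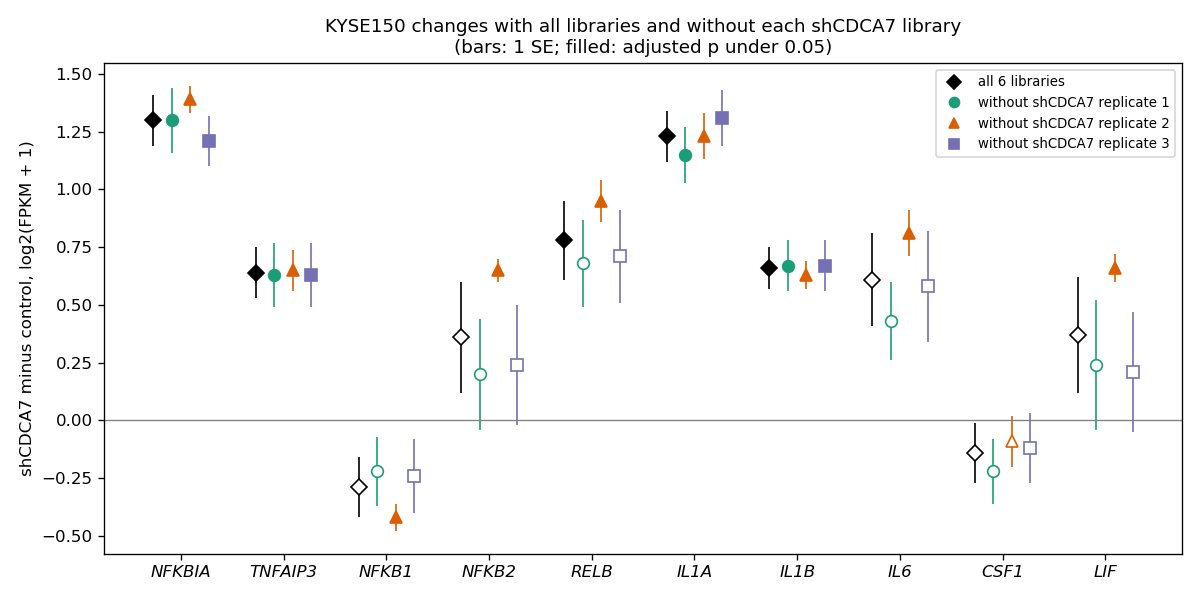
Difference between shCDCA7 and control in log2(FPKM + 1), with 1 standard error, for each of the 10 genes with all 6 KYSE150 libraries and without each shCDCA7 library. Without replicate 2 the standard errors shrink and NFKB2 (0.65), IL6 (0.81), LIF (0.66) and NFKB1 (-0.42) pass the threshold, while NFKBIA, TNFAIP3, IL1A and IL1B are past it in all 4 fits shown.

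In KYSE180, overexpression moved 1 of the 8 genes tested past the threshold: CSF1 fell. None rose, 7 did not pass, and IL1B and IL6 were not tested because too few reads fell on them. Of 15944 genes in that fit, 9.08% were called, 4.65% as higher and 4.43% as lower, so 1 of 8 is near the background share. The median change of the 8 genes was -0.04, against -0.005 for all genes tested. Without adjustment, 2 of the 8 had a p under 0.05, NFKB1 and CSF1, where 4777 of all 15944 genes tested had one. The same 2 had groups that did not overlap, both with overexpression lower, where 35.1% of all genes tested were without overlap, 17.7% higher and 17.4% lower. The squamous epithelial markers summed to 4541 to 5354 FPKM with overexpression and 2145 to 4350 in KYSE180 controls, with a median difference of 0.51 and 0 of 10 called, and their part in the results here was not tested.

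CSF1 was at 2.8, 2.75 and 2.54 FPKM in overexpressing libraries, against 8.04, 4.01 and 7.13 FPKM in KYSE180 controls. The overexpressing libraries were close together and below every control, and control replicate 2 was the lowest of the controls. CSF1 fell by 0.96 (SE 0.22, adjusted p = 0.0395), a ratio of 0.4218. The call was kept in 8 of 16 alternatives, and the adjusted p ran from 0.00275 to 0.138. It was lost without any 1 of the 3 overexpressing libraries (adjusted p = 0.112, 0.0937 and 0.138) and without control replicate 1 (0.137) or 3 (0.0584).

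NFKBIA was at 273, 169 and 212 FPKM with overexpression and at 172, 118 and 166 FPKM in controls. The lowest overexpressing library fell just under the highest control, so the groups overlapped. The difference of 0.51 (SE 0.23) had a 95% interval from -0.01 to 1.03 and did not pass the test (adjusted p = 0.175). TNFAIP3 was at 14, 15.7 and 16.5 FPKM with overexpression, against 20, 12.9 and 15.7 FPKM in controls, a difference of -0.05 with a 95% interval from -0.44 to 0.33 (adjusted p = 0.855). The controls of TNFAIP3 were spread more widely than the difference between the groups.

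NFKB1 was at 11, 11.5 and 10.9 FPKM with overexpression and at 20, 14.7 and 13.8 FPKM in controls. All overexpressing libraries were below all controls, of which replicate 1 was high. The difference was -0.49 (SE 0.15, adjusted p = 0.0784), and 3 of 16 alternatives called it lower, with adjusted p between 0.039 and 0.235. NFKB2 was at 31.8, 27.1 and 28.8 FPKM with overexpression and at 27.5, 22.6 and 29.8 FPKM in controls (0.14, SE 0.14, adjusted p = 0.538). RELB was at 27.7, 20.4 and 22.4 FPKM with overexpression and at 29.9, 18.8 and 23.9 FPKM in controls (-0.03, SE 0.19, adjusted p = 0.945). In both genes the groups overlapped, and the 95% intervals reached from -0.18 to 0.45 for NFKB2 and from -0.46 to 0.41 for RELB. Control replicate 2 was the lowest control for NFKBIA, TNFAIP3, NFKB2, RELB, CSF1 and LIF.

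The cytokines other than CSF1 were low in KYSE180. IL1A was at 0.291, 0.63 and 0.46 FPKM with overexpression, against 0.521, 0.634 and 0.979 FPKM in controls (-0.23, SE 0.13, adjusted p = 0.278). LIF was at 1.48, 1.6 and 1.6 FPKM with overexpression, against 1.06, 0.705 and 1.64 FPKM in controls (0.29, SE 0.16, adjusted p = 0.272). The groups of both genes overlapped, and at these levels the added 1 makes the log2 difference smaller than the ratio. IL1B had 1, 1 and 4 reads in overexpressing libraries and 9, 7 and 4 reads in controls. IL6 had 2, 0 and 4 reads in overexpressing libraries and 1, 22 and 0 reads in controls, so 22 of the 23 control reads came from 1 library. Neither gene was tested at these counts, so no change is read from them. STEAP1B, which overlaps IL6 on the opposite strand, was at 1.22 to 1.27 FPKM in overexpressing libraries and 2.16 to 3.9 FPKM in KYSE180 controls, and the sources used here do not say whether the counting used strand.

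**Figure D4:**
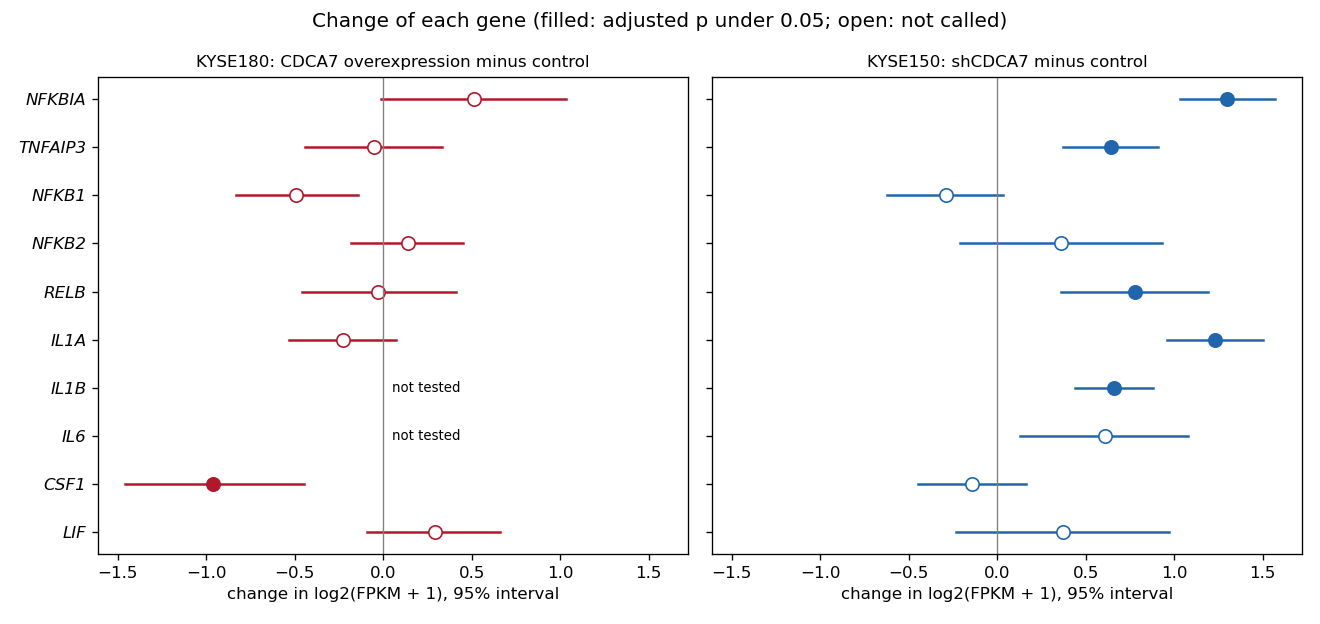
Difference in log2(FPKM + 1) with its 95% interval for the 10 genes, overexpression minus control in KYSE180 and shCDCA7 minus control in KYSE150, filled where the adjusted p is under 0.05. CSF1 (-0.96) is the filled point in KYSE180, and NFKBIA (1.30), IL1A (1.23), RELB (0.78), IL1B (0.66) and TNFAIP3 (0.64) are the filled points in KYSE150.

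The native lines were set against each other to show from which levels the manipulations started. In a fit of all 12 libraries, native KYSE180 was higher than native KYSE150 in 5 of the 10 genes and lower in 4, and NFKB2 did not pass. Of the 17088 genes tested, 58.0% were called, 33.4% as higher and 24.6% as lower, so most genes differ between these lines and 9 of 10 is read against that. The groups did not overlap for 9 of the 10 genes, against 71.3% of all genes tested.

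The regulators were the higher ones in KYSE180. NFKBIA averaged 152.1 ± 29.54 FPKM in native KYSE180 and 11.68 ± 0.526 in native KYSE150 (SD, n = 3 each), a ratio of 13.01 and a log2 difference of 3.57 (SE 0.18, adjusted p = 2.03e-08). RELB had a ratio of 4.554 (1.98, adjusted p = 4.22e-06), TNFAIP3 of 3.404 (1.56, adjusted p = 2.93e-06) and NFKB1 of 1.547 (0.57, adjusted p = 0.00566). NFKB2 averaged 26.63 ± 3.697 FPKM in KYSE180 and 23.16 ± 1.071 in KYSE150, and the difference of 0.19 did not pass the test (adjusted p = 0.453). CSF1 was the 1 cytokine of the set that was higher in KYSE180, by a ratio of 2.664 (1.08, adjusted p = 0.000558).

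The other cytokines were lower in native KYSE180. IL1A averaged 0.7111 ± 0.2389 FPKM in KYSE180 and 19.14 ± 1.473 in KYSE150, which is 26.91-fold higher in KYSE150 (-3.56, SE 0.14, adjusted p = 2.19e-09). IL1B averaged 0.1188 ± 0.05189 FPKM in KYSE180 and 8.879 ± 0.5701 in KYSE150, 74.73-fold higher in KYSE150 (-3.14, SE 0.10, adjusted p = 4.44e-10). IL6 was 22.45-fold and LIF 3.661-fold higher in KYSE150, with adjusted p of 2.72e-06 and 0.000455. IL1B and IL6 passed the filter on low reads through the KYSE150 libraries alone, so they had to differ here. This contrast uses the same control libraries as the manipulations do, so its values are not independent of theirs. All 190 results of the 10 genes under the alternatives kept their direction and their side of the threshold. Fits without a manipulated library, and the stricter threshold, could not change the direction.

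Whether the manipulations differ in their effect was tested directly, as the change with overexpression minus the change with shCDCA7. IL1A passed, as did IL1B by arithmetic that its low level in KYSE180 sets, and the other 8 genes did not. Of the 17088 genes tested, 5.57% were called, 2.87% as higher and 2.70% as lower. The value for IL1A was -1.45 (SE 0.20, adjusted p = 0.00295), from a change of -0.23 with overexpression and 1.23 with shCDCA7. IL1A had 10 to 41 reads in the KYSE180 libraries, a level at which the added 1 makes a log2 change smaller than the ratio. How much of the difference for IL1A follows from that low level was not tested. That of IL1B was -0.77 (SE 0.14, adjusted p = 0.0127), but IL1B entered this fit through the KYSE150 libraries alone. With 1 to 9 reads in the KYSE180 libraries its change there could not be far from 0 on this scale, so the value largely repeats the 0.66 of KYSE150 and is no sign that the effects on IL1B differ. The differences of TNFAIP3 (-0.69, adjusted p = 0.0731), NFKBIA (-0.79, 0.104), RELB (-0.80, 0.108), CSF1 (-0.81, 0.109) and IL6 (-0.76, 0.146) had unadjusted p-values under 0.05 and did not pass after adjustment. An unadjusted p under 0.05 was found for 3797 of the 17088 genes tested. IL6 had 0 to 22 reads in the KYSE180 libraries and was not tested there. Its value, like that of IL1B, largely repeats the change in KYSE150 (0.61) and is not read as a difference in effect. Without KYSE180 control replicate 2, 6 genes passed, with NFKBIA, TNFAIP3, RELB and CSF1 added, and without shCDCA7 replicate 2, 4 passed, with RELB and IL6 added. The number of genes called over the whole table also moved with the library left out. These counts are therefore not read as a result about the 10 genes. IL1A was called under each of 20 alternatives, with adjusted p from 0.00185 to 0.0344, and IL1B lost its call in 4 of 20, with adjusted p from 0.00863 to 0.0939.

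The wider pathway is given from lists that share some genes with each other and with the 10. Of 5 NF-κB subunits, RELB was the 1 called with shCDCA7, near the 19.9% of all genes called. With overexpression none was called, against 9.08% of all genes. Fits without 1 library called 0 to 3 subunits higher and 0 to 1 lower with shCDCA7. The 3 higher came from the fit without shCDCA7 replicate 2, where 55.9% of all genes were called. RELA, the main activating subunit, was at 18.65 ± 4.857 FPKM with shCDCA7 and 19.08 ± 0.346 in controls (-0.06, adjusted p = 0.84), and at 24.92 ± 1.498 FPKM with overexpression and 24.22 ± 0.639 in controls (0.04, adjusted p = 0.838; SD, n = 3 each). Of the inhibitors and feedback genes, 3 of 13 tested rose with shCDCA7 and none fell. The third beside NFKBIA and TNFAIP3 was NFKBIZ, an inducible nuclear IκB protein, at 4.698 ± 0.6023 FPKM with shCDCA7 and 2.164 ± 0.3561 in controls (0.85, SE 0.13, adjusted p = 0.00998). That is 3 of 13 against 19.9% of all genes. With overexpression 1 of 14 was called, lower, against 9.08% of all genes. It was TNIP3, a partner of A20, with 6 to 9 reads per overexpressing library and 43 to 57 per control. TNIP3 passed the filter on low reads through the controls alone, so it could only be called lower. Without shCDCA7 replicate 2, 8 of 13 inhibitors and feedback genes were higher with shCDCA7 and 1 lower, where 55.9% of all genes were called.

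Of IKK and its upstream kinases, 1 of 11 fell in each line and none rose, which is no more than the 19.9% of all genes called with shCDCA7 and near the 9.08% with overexpression. It was TAB1, a partner of the kinase TAK1, with shCDCA7 (-0.77, adjusted p = 0.00885), and the IKK-related kinase IKBKE with overexpression (-0.92, adjusted p = 0.0308). TAB1 kept its call in 4 of 6 fits without 1 library and IKBKE in 2 of 6, with adjusted p up to 0.0636 and 0.109. IKBKB, which encodes the catalytic IKKβ, differed by -0.07 with shCDCA7 (adjusted p = 0.696) and by -0.06 with overexpression (adjusted p = 0.83). Without shCDCA7 replicate 2, 5 of these 11 were called higher and 1 lower, close to the 55.9% of all genes called in that fit. Of the receptors and adaptors, 6 of 21 tested rose with shCDCA7 and 3 fell, against 19.9% of all genes called, and with overexpression 3 of 23 fell and none rose, against 9.08%. Leaving out 1 library moved these counts between 1 and 7 higher and 0 and 7 lower with shCDCA7, and between 0 and 9 lower with overexpression. Both counts of 7 came from the fit without shCDCA7 replicate 2, where 55.9% of all genes were called. The 9 lower, of 24 tested, came from the fit without KYSE180 control replicate 2, where 7.25% of all genes were called lower.

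The adaptors that rose with shCDCA7 include BIRC3, a ubiquitin ligase and NF-κB target (1.13, adjusted p = 0.00437), the interleukin-1 receptor kinase IRAK2 (1.01, adjusted p = 0.00839), the NOD-pathway kinase RIPK2 (0.97, adjusted p = 0.00784) and the ubiquitin ligase TRAF6 (0.59, adjusted p = 0.0219). MYD88, the adaptor shared by interleukin-1 and Toll-like receptors, fell (-0.47, adjusted p = 0.0283), as did TRAF1 (-0.37, adjusted p = 0.0411). Each kept that call in 1 of the 6 fits that leave out 1 library, with adjusted p up to 0.138 for MYD88 and 0.145 for TRAF1, while TRAF6 kept its own in 2 of 6. RIPK1, a kinase of the tumour necrosis factor receptor complex, fell in both lines, although CDCA7 was raised in 1 and lowered in the other. It was at 2.32, 3.28 and 2.69 FPKM in shCDCA7 libraries, against 5.74, 7.04 and 6.5 FPKM in controls, and at 3.51, 4.92 and 4.43 FPKM in overexpressing libraries, against 14.3, 10.9 and 9.61 FPKM in controls. In neither line did the groups overlap. RIPK1 fell by 0.99 with shCDCA7 (SE 0.14, adjusted p = 0.00721) and by 1.25 with overexpression (SE 0.18, adjusted p = 0.014), and the test of the difference between these did not pass (-0.26, adjusted p = 0.548). Leaving out 1 library kept the call in 5 of 6 fits in KYSE150 and 3 of 6 in KYSE180. TNFRSF11A, which encodes the receptor RANK, fell with overexpression (-0.66, adjusted p = 0.0281), as did TRAF3 (-0.54, adjusted p = 0.0441), which restrains the non-canonical branch. TNFRSF11A kept its call in 2 of 6 fits without 1 library and TRAF3 in 1 of 6, with adjusted p up to 0.114 and 0.174.

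Other NF-κB target genes numbered 32, of which 21 were tested in KYSE150 and 27 in KYSE180. With shCDCA7, 9 of 21 rose and 1 fell, against 19.9% of all genes called, and their median change was 0.54, against 0.002 for all genes. This list too was chosen with earlier results of these data known, which may have raised the count. CCL5, a chemokine, was at 15.4, 6.43 and 12.5 FPKM with shCDCA7, against 0.34, 1.05 and 0.893 FPKM in controls. The groups lay far apart although replicate 2 was again the lowest. CCL5 rose by 2.77 (SE 0.32, adjusted p = 0.00478). PLAU, the urokinase protease, was at 63.01 ± 16.07 FPKM with shCDCA7 and 17.86 ± 1.156 in controls (1.73, SE 0.20, adjusted p = 0.00462). SDC4, a cell-surface proteoglycan, was at 125.4 ± 2.535 FPKM with shCDCA7 and 62.48 ± 1.639 in controls (0.99, SE 0.08, adjusted p = 0.002). BIRC3 is also on this list, and TRAF1 is the gene that fell. Without shCDCA7 replicate 2, 17 of these 21 targets were higher and 2 lower, against 55.9% of all genes called, and over all leave-outs of 1 library the number higher ran from 4 to 17.

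With overexpression, 2 of 27 targets rose and 3 fell, against 9.08% of all genes called, with a median change of -0.31. IER3, an early response gene, was at 675, 480 and 583 FPKM with overexpression, against 121, 251 and 129 FPKM in controls, and rose by 1.86 (SE 0.30, adjusted p = 0.0195). TNFAIP8 also rose (1.12, SE 0.15, adjusted p = 0.0125). The chemokines CCL2 (-1.77, SE 0.36, adjusted p = 0.0308) and CXCL2 (-1.35, SE 0.24, adjusted p = 0.0244) fell, and so did CD83 (-0.64, SE 0.13, adjusted p = 0.0331). Leaving out 1 library moved these counts between 0 and 4 higher and between 0 and 13 lower. The 13 lower, of 27 tested, came from the fit without KYSE180 control replicate 2, where 7.25% of all genes were called lower. The 4 higher came from the fit without control replicate 3, where 7.93% of all genes were called higher. IER3, TNFAIP8, CCL2, CXCL2 and CD83 each kept their call in 2 or 3 of the 6 fits that leave out 1 library. With shCDCA7, CCL5, PLAU, SDC4 and BIRC3 kept theirs in all 6.

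**Figure D5:**
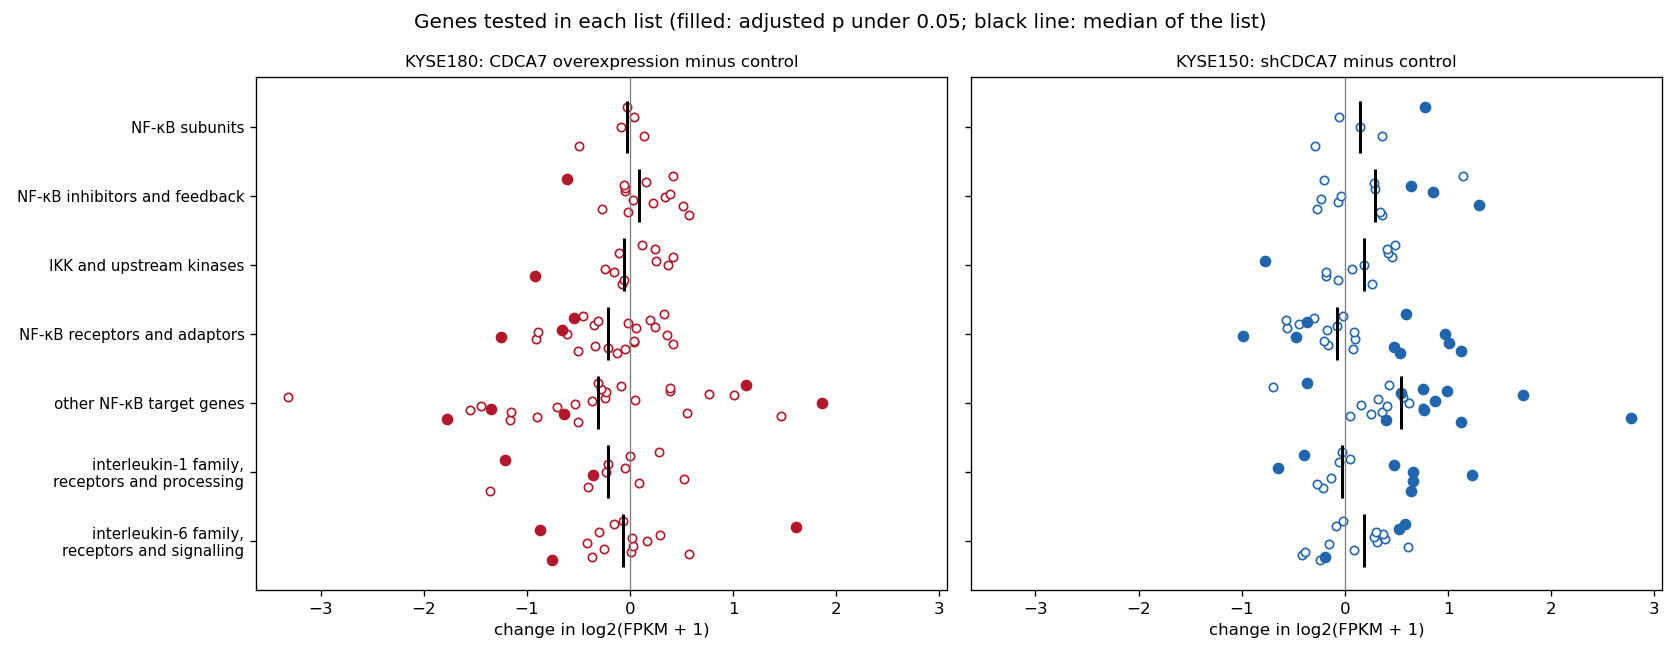
Difference in log2(FPKM + 1) for every gene tested in 7 pathway lists, overexpression minus control in KYSE180 and shCDCA7 minus control in KYSE150, filled where the adjusted p is under 0.05, with the median of each list as a black line. The target genes have a median of 0.54 with shCDCA7 and -0.31 with overexpression.

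Of the interleukin-1 family, its receptors and its processing genes, 5 of 13 tested were called higher with shCDCA7 and 2 lower, against 19.9% of all genes called. Beside IL1A and IL1B the higher ones were IL18, CASP1 and the receptor chain IL1RAP (0.48, SE 0.12, adjusted p = 0.0398). IL18 is a relative of IL1B (0.66, SE 0.10, adjusted p = 0.00948). CASP1 encodes the protease that cleaves the precursors of IL1B and IL18 (0.64, SE 0.09, adjusted p = 0.00784). The decoy receptor IL1R2 had 2 or 3 reads per shCDCA7 library and 31 to 59 per control. It passed the filter through the controls alone and could only be called lower. IL36RN, an antagonist of the interleukin-36 branch, fell (-0.40, adjusted p = 0.024). IL1R1, the signalling receptor, was barely read in any group. It was at 0.05601 ± 0.01279 FPKM with shCDCA7 and 0.09394 ± 0.03868 in KYSE150 controls, too low to test, and at 0.08083 ± 0.02839 FPKM with overexpression and 0.1174 ± 0.07544 in KYSE180 controls (adjusted p = 0.691). With overexpression 2 of 11 were called, both lower, against 9.08% of all genes. The receptor antagonist IL1RN fell, at 0.2476 ± 0.05066 FPKM with overexpression and 2.096 ± 1.389 in controls (-1.21, adjusted p = 0.0469). The other, IL18R1, had 3 to 6 reads per overexpressing library and 19 to 45 per control, passed the filter through the controls alone and was called in none of the 3 leave-out fits in which it could be tested (lowest adjusted p 0.103). IL1RN kept its call in 1 of the 6 fits without 1 library, and CASP1 kept its own with shCDCA7 in all 6. With shCDCA7, IL18 kept its call in 4 of 6, IL36RN in 3 of 6 and IL1RAP in 2 of 6 (adjusted p up to 0.157 for IL1RAP).

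In the interleukin-6 family and its signalling, 2 of 16 tested were called higher with shCDCA7 and 1 lower, close to the 19.9% of all genes called. With overexpression 1 of 15 rose and 2 fell, against 9.08% of all genes. OSMR, the oncostatin M receptor chain that pairs with gp130, went opposite ways. It was at 33.2, 29.2 and 34.1 FPKM in shCDCA7 libraries, against 22.5, 22.4 and 21.6 FPKM in controls, and at 7.15, 7.12 and 7.59 FPKM in overexpressing libraries, against 16.9, 10.4 and 16.1 FPKM in controls. OSMR rose with shCDCA7 (0.52, SE 0.09, adjusted p = 0.0135) and fell with overexpression (-0.87, SE 0.18, adjusted p = 0.032), and the difference itself passed (-1.39, SE 0.21, adjusted p = 0.00564). Leaving out 1 library kept the OSMR call in 3 of 6 fits in KYSE150 and 2 of 6 in KYSE180.

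STAT3, the main transcription factor behind gp130, rose with shCDCA7 (0.58, SE 0.15, adjusted p = 0.0385), but without replicate 1, 3 or any control its call was lost, and only the fit without shCDCA7 replicate 2 kept it. CNTF, the gene called lower with shCDCA7, had 4 reads in each shCDCA7 library and 10 to 13 in controls, and it passed the filter through the controls alone. SOCS3, a feedback inhibitor that STAT3 induces, was at 20.1, 15.4 and 17.9 FPKM with overexpression, against 4.58, 6.81 and 4.23 FPKM in controls, and rose by 1.61 (SE 0.18, adjusted p = 0.0086), a call kept in 4 of 6 fits without 1 library. The cytokine CLCF1 fell with overexpression (-0.76, adjusted p = 0.0227), a call kept in 2 of 6 fits without 1 library (adjusted p up to 0.11). The receptor chains of IL6 and LIF did not pass in either line: IL6ST, which encodes gp130, differed by 0.31 with shCDCA7 (adjusted p = 0.421) and -0.42 with overexpression (0.119), IL6R by -0.15 with shCDCA7 (0.328) and 0.03 with overexpression (0.896), and LIFR by 0.30 with shCDCA7 (0.266) and -0.30 with overexpression (0.249). CSF1R, the receptor of CSF1, was at 0.317 ± 0.08384 FPKM with shCDCA7 and 0.4349 ± 0.09794 in controls (adjusted p = 0.295), and too low to test in KYSE180. Of the 8 colony-stimulating factors and receptors listed, 2 were tested in each line, and CSF1 with overexpression was the 1 called.

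The genes whose pattern over the 12 libraries lay nearest to each of the 8 genes tested in both lines were found by Euclidean distance among 13369 genes, on log2(FPKM + 1) minus the mean of the line's native controls. Nearest to NFKBIA was MAP3K8, at a distance of 0.4918, with changes of 0.43 with overexpression and 1.27 with shCDCA7. PLK2 was nearest to IL1A, at 0.5133, with changes of -0.26 with overexpression and 1.31 with shCDCA7. PSME1 was nearest to RELB (0.3962), C18orf25 to TNFAIP3 (0.3766), TOP3A to NFKB1 (0.2951), ST3GAL4 to NFKB2 (0.3122), DRAM1 to CSF1 (0.3962) and ARGLU1 to LIF (0.2732). The second nearest were TM4SF1 for NFKBIA, TIMM10B for IL1A, APOBEC3B for RELB, SH3RF2 for TNFAIP3, FLG for NFKB1, ORMDL3 for NFKB2, SLC25A25-AS1 for CSF1 and RHBDF1 for LIF, at distances from 0.2934 to 0.6455. The distance describes likeness in these libraries only.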

How the data were processed

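RNA from 12 libraries was analysed from 1 deposited table of FPKM values, scaled by the authors per kilobase of the gene length in that table and by an effective library size. Per the submitters' processing notes, HISAT2 2.0.5 and DESeq2 1.20.0 were used and the build is given as mm10, a mouse build, whereas all 58735 gene identifiers and positions match GENCODE 29 (human GRCh38). Counting tool and strand are not given in the sources used here, so TNFAIP3, IL6 and LIF, which overlap genes on the opposite strand, may hold reads of those. FPKM multiplied by gene length gave whole reads for 100% of values (tolerance 0.01 reads), and libraries had no molecular identifiers, so depth sets counting error only.

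Tests used limma 3.58.1 in R 4.3.3 (limma-trend, intensity-dependent prior) on log2(FPKM + 1), with group as the only term and Benjamini-Hochberg adjustment over all genes tested. The 6 libraries of a line were fitted for each manipulation, and all 12 for the native lines and the difference between manipulations. The filter asked for 15 or more reads in all and, scaled to a median-sized library, 10 or more in 3 libraries of the fit. The fit was tested on simulated counts that had the same relative spread in every gene and library. The real libraries vary less evenly, so that test does not show how the fit performs on them. Alternatives were an added 0.1, other filters and scalings, limma-voom on the recovered reads (1831 genes called in KYSE180 and 2997 in KYSE150), a threshold of 0.01, 1 fit over both lines, the replicate number as a block, and fits without single libraries. Counts for the lists, and the share of all genes called, without single libraries were chosen after seeing the data.

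The 10 genes and the pathway lists were chosen with earlier results of these data known. From each list up to 4 called genes per direction are named by size of change, together with CDCA7, RELA, IKBKB and the cytokine receptors. Promoters are RefSeq windows on GRCh38.p14.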

Additional observations from a re-analysis of the deposited data

Results flagged for a closer look

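The change with overexpression in KYSE180 and the change with shCDCA7 in KYSE150 were compared by a test of the difference itself. That test was passed by 2 of the 10 genes, against 5.57% of all genes tested (limma-trend on all 12 libraries, adjusted over 17088 genes). The count is not read as a result about the 10 genes. The difference was -1.45 on the log2 scale for IL1A, which was 1.23 higher with shCDCA7 and differed by -0.23 with overexpression. With 10 to 41 reads per KYSE180 library, the change of IL1A there is made smaller by the added 1. The part of this low level in the difference was not tested. For IL1B the difference was -0.77, but IL1B had 1 to 9 reads per KYSE180 library and entered the fit through KYSE150 alone. The value for IL1B thus largely repeats its change of 0.66 with shCDCA7 and is not read as a difference in effect. In both genes all 3 shCDCA7 libraries were above all 3 KYSE150 controls.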

How the results depend on the processing

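In native KYSE180 against native KYSE150, the number of the 10 genes called and all 190 single results kept their direction and side of the threshold. Some of these alternatives, the fits without a manipulated library and the threshold of 0.01, could not change a direction there. In KYSE180 the 1 gene called with overexpression became 0 with no filter on low reads, at an adjusted p under 0.01 and with the replicate block, 2 with library totals and 2 in the fit of all 12 libraries, and 0 to 1 when 1 library was left out. The 1447 genes called over the whole table became 3 with no filter, 62 under 0.01, 2893 with all 12 libraries, 603 with the block, and 1 to 2317 with 1 library left out. In KYSE150 the 5 genes called with shCDCA7 became 3 under 0.01, 3 with the block and 2 to 9 with 1 library left out, and the 2854 over the table became 1554 with no filter, 785 under 0.01, 1001 with the block and 410 to 7948 with 1 library left out. Of the difference between manipulations, the 2 genes became 1 with library totals, with limma-voom, under 0.01 and with the block, and 2 to 6 with 1 library left out. Its 952 genes over the table became 530 with no filter, 476 with limma-voom, 189 under 0.01, 211 with the block and 269 to 1632 with 1 library left out. The cause of these moves was not tested, beyond the fewer libraries or the stricter threshold of the settings themselves.

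Some uncalled differences changed sign. With overexpression, that of TNFAIP3 ran from -0.20 to 0.10 and that of RELB from -0.19 to 0.13 with 1 library left out. The difference between manipulations for LIF was -0.08, and became 0.07 with an added 0.1, 0.06 with library totals, 0.08 with limma-voom and -0.38 to 0.08 with 1 library left out. Library totals moved the share of calls that were higher to 29% in KYSE180, against 51.21%, to 20.47% in KYSE150, against 50.46% (39.41% with upper-quartile scaling), and to 62.33% for the difference, against 51.58%.

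Same-numbered libraries of manipulated and control cells deviated from their group means with correlations of -0.0825, -0.0604 and 0.0913 in KYSE180 and 0.0144, -0.0805 and -0.0809 in KYSE150. Libraries with different numbers had correlations from -0.126 to 0.122. The correlations thus give no sign that the replicate numbers pair the libraries, but with 3 libraries per group they cannot exclude it. The block values above are therefore given beside the others. Depth limits IL1B and IL6 in KYSE180, where 0 to 22 reads fell on them per library.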
